A study of Drosophila melanogaster with 2 samples.

Results

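CG14441-eGFP binding was described at 10 genes of the microtubule polymer: 3 alpha-tubulin, 4 beta-tubulin and 2 gamma-tubulin genes and Atat, the gene of the alpha-tubulin acetyltransferase, out of 13945 protein-coding genes. The genes were chosen with their peaks known, by the presence, position and signal of those peaks, so every count and signal given for them is a description without a test. A peak was assigned to a gene when its summit, the base of highest signal, lay in the gene body or within 2000 bp of it, and 12 of the 5115 peaks on the chromosome arms were assigned in this way. CG14441 is a fly protein, and the study is a ChIP-seq experiment, in which DNA bound to a protein is enriched with an antibody and sequenced. The experiment had 1 group of 2 biological replicates. Chromatin came from entire embryos of Drosophila melanogaster, aged 0 to 24 h, of the strain CG14441-GFP, which carries an insertion targeting CG14441 and makes the protein fused to eGFP. The enrichment used an antibody against GFP, although the antibody field of the labels names CG14441. Embryos of all stages up to 24 h and all their cell types were mixed, so neither the cells in which binding took place nor its stage can be told, and no RNA was measured here.

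Microtubules are hollow polymers of alpha- and beta-tubulin dimers, and gamma-tubulin forms the ring that starts a new one. Flies have several genes for each kind: some are used in nearly all cells, others mainly in the female germ line, the testis or particular tissues. The enzyme made by Atat adds an acetyl group to a lysine of alpha-tubulin that faces the inside of the polymer, a mark of long-lived microtubules, abundant in neurons and in cilia.

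Sequences are shown at the 3 strongest summits and at the 2 upstream peaks of betaTub97EF, the restricted tubulin gene with peaks. They are also shown before 4 genes used for comparison, 1 with a peak and 3 without. They were read from the RefSeq dm6 genome, 5′ to 3′ on the strand of the gene, and stop where an annotated transcript begins. Capitals mark matches, on either strand, to any of 9 short motifs. Promoter elements among them were the DNA replication-related element (DRE), written TATCGATA, the element called Motif 1, written GGTCACACT, the TATA box, written TATAAA, and a core of the initiator, written TCAGT. Sites of known fly factors were that of the insulator protein BEAF-32, written CGATA, that of GAGA factor, written GAGAGAG, and that of Zelda, the activator of the early embryonic genome, written CAGGTAG. The last of the motifs were the E-box, written CACGTG, and a run of A, written AAAAAAA. Every TATCGATA also holds CGATA on both strands. The first is the whole stretch between the Atat start and the start of the divergent gene Shc, chr3L:9426759-9427009, minus strand, with the strongest peak. The second surrounds the summit of the second Atat peak, chr3L:9422951-9423151, minus strand. The third surrounds the gammaTub23C summit, chr2L:2972651-2972851, plus strand. The last sequences of this group lie at the first and second betaTub97EF peaks, chr3R:27988930-27989130 and chr3R:27988385-27988568, both on the minus strand.
Atat to Shc: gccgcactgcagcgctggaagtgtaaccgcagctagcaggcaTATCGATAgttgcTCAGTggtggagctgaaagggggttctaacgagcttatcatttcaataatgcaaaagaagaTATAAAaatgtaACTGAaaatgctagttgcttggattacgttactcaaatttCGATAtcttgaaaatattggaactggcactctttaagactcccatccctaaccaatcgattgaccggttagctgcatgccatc
Atat peak 2: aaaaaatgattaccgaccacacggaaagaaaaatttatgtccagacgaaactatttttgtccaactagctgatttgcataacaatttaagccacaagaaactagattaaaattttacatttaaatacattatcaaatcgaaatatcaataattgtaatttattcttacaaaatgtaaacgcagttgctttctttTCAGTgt
gammaTub23C peak: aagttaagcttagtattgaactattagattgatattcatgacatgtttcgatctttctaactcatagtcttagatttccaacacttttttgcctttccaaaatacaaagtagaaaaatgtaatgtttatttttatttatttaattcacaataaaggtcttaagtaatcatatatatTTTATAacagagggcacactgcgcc
betaTub97EF peak 1: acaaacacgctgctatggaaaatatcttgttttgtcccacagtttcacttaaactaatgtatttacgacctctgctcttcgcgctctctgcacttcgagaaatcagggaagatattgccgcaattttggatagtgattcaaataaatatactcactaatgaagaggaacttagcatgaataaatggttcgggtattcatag
betaTub97EF peak 2: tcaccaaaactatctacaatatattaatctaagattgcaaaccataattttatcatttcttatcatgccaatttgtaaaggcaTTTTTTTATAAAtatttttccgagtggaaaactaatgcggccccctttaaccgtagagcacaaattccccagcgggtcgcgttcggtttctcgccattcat

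The next pair are matched stretches just before the starts of the similar genes alphaTub84B, which had a peak, and alphaTub84D, which had none, at chr3R:7086485-7086598 and chr3R:7530639-7530752, both on the plus strand. The last pair precede the starts of gammaTub37C, chr2L:19185727-19185926, minus strand, and alphaTub67C, chr3L:9681068-9681267, plus strand. Both are genes of the female germ line, neither had a peak, and both stretches hold the DRE.
alphaTub84B: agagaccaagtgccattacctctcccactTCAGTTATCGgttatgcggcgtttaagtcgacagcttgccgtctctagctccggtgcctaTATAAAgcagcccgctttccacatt
alphaTub84D: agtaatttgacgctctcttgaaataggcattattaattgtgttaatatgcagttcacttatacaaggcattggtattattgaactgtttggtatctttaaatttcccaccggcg
gammaTub37C: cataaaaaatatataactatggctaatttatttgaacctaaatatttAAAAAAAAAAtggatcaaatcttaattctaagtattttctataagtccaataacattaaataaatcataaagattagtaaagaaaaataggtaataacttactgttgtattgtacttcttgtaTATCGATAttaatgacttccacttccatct
alphaTub67C: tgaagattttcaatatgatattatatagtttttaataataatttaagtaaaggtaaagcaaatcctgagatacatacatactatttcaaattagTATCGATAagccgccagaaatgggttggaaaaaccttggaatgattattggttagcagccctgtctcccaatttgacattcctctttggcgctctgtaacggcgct

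At least 1 peak of the conservative set lay at 5 of the 10 genes: Atat, gammaTub23C, alphaTub84B, betaTub56D and betaTub97EF. Of all protein-coding genes, 35.6% had one by the same rule. In the other thresholded set of the series the same 5 genes had a peak, beside 38.8% of all genes. Replicate 1 alone gave 4 of the 10 and replicate 2 alone also 4, beside 30.6% of all genes in each. All 5 genes had a summit within 500 bp of an annotated transcription start site (TSS), a stricter rule that 18.9% of all genes met. A peak of the conservative set that overlapped a thresholded peak of each replicate was found at 3 of the 10, Atat, gammaTub23C and betaTub97EF, beside 24.9% of all genes. Since the genes were picked by their peaks, nothing is read from these shares.

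The strongest of these peaks were at Atat, the gene of the acetyltransferase (FBgn0035989, chr3L:9413596-9426758, minus strand), which held 5 of the 12. A gene with a peak had a median of 1 peak, and 176 of them, 3.55%, had 5 or more. The gene is 13163 bp long, against a median of 3422 bp for genes with a peak, and has 5 annotated TSSs. The 5 peaks covered nearly the whole range of signals seen at the 10 genes.

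Atat peak 1 (chr3L:9426732-9427032) had a signal of 1037 in replicate 1 and 587.8 in replicate 2. Both values were far above those of every other gene described here, but they differed from each other 1.76-fold. The replicate mean was 812.6 ± 318 (SD, n = 2), and the signal of the series list was 1629. That placed the peak at rank 22 of the 5116 peaks of the set, at rank 13 of 114684 candidates in replicate 1 and at rank 42 of 107972 in replicate 2. Its summit lay 126 bp before the most upstream Atat TSS and equally 126 bp before the TSS of Shc (FBgn0015296), which is transcribed the other way and codes for an adaptor protein of receptor tyrosine kinase signalling. The peak therefore cannot be given to 1 of the 2 genes. Only 21 protein-coding genes, 0.151%, had a stronger candidate within 500 bp of a TSS.

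Atat peak 2 (chr3L:9422926-9423171) had a signal of 440.1 in replicate 1 and 391.3 in replicate 2, with a mean of 415.7 ± 34.5 (SD, n = 2). The replicates were close here, and the series signal of 835.7 ranked 98. The summit lay in an Atat intron, 3707 bp along the gene from its first TSS and 2874 bp before the next internal one. It was nearer to another gene, 202 bp before the TSS of aay (FBgn0023129), which lies inside Atat on the opposite strand and codes for phosphoserine phosphatase, an enzyme of serine synthesis. Peak 1 was thus shared by the Atat and Shc promoters, while peak 2 lay within 500 bp of the aay TSS but of no Atat TSS.

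The other 3 peaks at Atat were weak and lay near its own TSSs or in an intron. Peak 3 (chr3L:9420013-9420336) sat 2 bp after an internal TSS, in a 5' UTR, with a signal of 64.73 in replicate 1 and 49.89 in replicate 2. Peak 4 (chr3L:9419344-9419667) was 103 bp before another internal TSS, with 48.67 and 40.49 in that order. Both were present in the thresholded set of each replicate, and no other gene's TSS lay within 500 bp. Peak 5 (chr3L:9425849-9426172), 666 bp after a TSS in an intron, had 34.08 in replicate 1 and 43.78 in replicate 2 and was in the set of replicate 2 alone. Their series signals of 113.2, 91.84 and 77.65 were below the median of the set, 116.2.

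**Figure D1:**
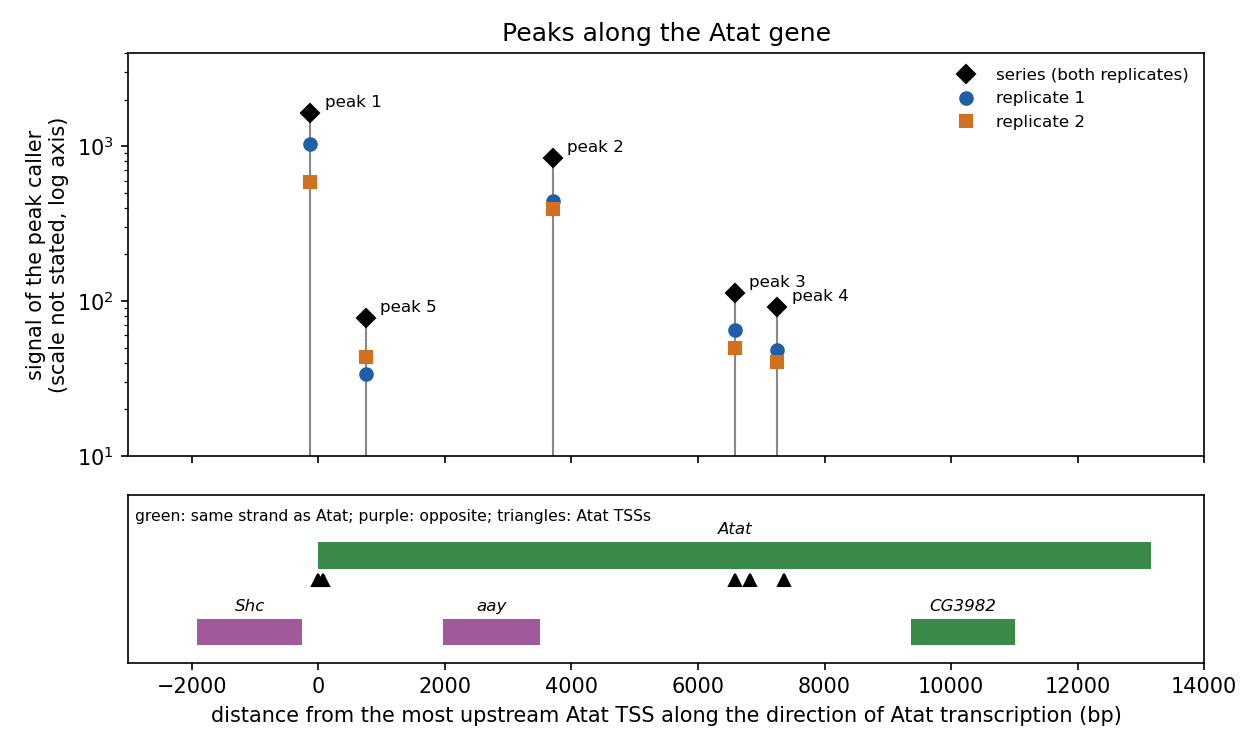
Signals of the 5 peaks at Atat (upper panel, log axis, scale of the peak caller not stated) against the distance in bp from its most upstream TSS in the direction of transcription, for the series list (diamonds), replicate 1 (circles) and replicate 2 (squares), with the genes below. Peak 1 sits between Atat and Shc and peak 2 just before the nested gene aay, and both are several times stronger than peaks 3, 4 and 5.

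Among the gamma-tubulins, 1 of the 2 genes had a peak. gammaTub23C (FBgn0260639, chr2L:2972891-2974858, plus strand) codes for the gamma-tubulin of somatic cells. Its peak (chr2L:2972589-2972912) had a signal of 105.7 in replicate 1 and 107.5 in replicate 2, the closest pair of values among the 12 peaks, with a mean of 106.6 ± 1.28 (SD, n = 2). The series signal of 217.3, rank 1115, was the highest at any tubulin gene and 21.8% of the way down the set, above its upper quartile of 195.4. In the sets of the single replicates, which differ in length, the strongest peak at the gene stood 33.6% of the way down in replicate 1 and 26.9% in replicate 2, below the upper quartile of each. The summit lay 140 bp before the gammaTub23C TSS and 243 bp before that of Rrp1 (FBgn0004584), a divergent gene for a DNA repair enzyme, so this peak too is shared by a gene pair.

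gammaTub37C (FBgn0010097, chr2L:19183863-19185726, minus strand), whose product is the maternal gamma-tubulin of eggs and early embryos, had no peak. The ranked series list held 1 candidate within 2000 bp of it, 1364 bp before the TSS, with 16.72 in the first replicate column, 6.929 in the second and a mean of 11.83 ± 6.93 (SD, n = 2). Its series signal of 23.53 ranked 59653 in the whole ranked series list, of which 121431 candidates lie on the arms. Both replicate values were below those of the gammaTub23C peak. The coding sequences of the 2 gamma-tubulin genes were 73% identical.

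Of the 3 alpha-tubulin genes, only alphaTub84B had a peak. alphaTub84B (FBgn0003884, chr3R:7086599-7088839, plus strand) is the main alpha-tubulin gene of most cells. Its peak (chr3R:7086485-7086808) had a signal of 42.4 in replicate 1 and 52.01 in replicate 2, with a mean of 47.2 ± 6.79 (SD, n = 2). The series signal of 98.99, rank 3106, was below the median of the set, and the peak was in the thresholded set of replicate 2 but not of replicate 1. The summit lay 48 bp after the TSS, in the 5' UTR, and no other gene's TSS was within 500 bp.

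alphaTub84D (FBgn0003885, chr3R:7530753-7532732, plus strand), also used in most cells, had no peak. Its coding sequence was 92.2% identical to that of alphaTub84B, and whether reads from the 2 copies can be told apart was not tested. The alphaTub84B summit lies outside the coding sequence, and identity was not measured there. Of the matched stretches printed above, which lie before the genes, that of alphaTub84D holds no motif match. The strongest candidate within 500 bp of its TSS had 11.42 in the first replicate column and 22.34 in the second. That gave a mean of 16.88 ± 7.72 (SD, n = 2), with both values below those at alphaTub84B.

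alphaTub67C (FBgn0087040, chr3L:9681268-9683370, plus strand), the maternal alpha-tubulin gene, had no candidate at all within 2000 bp. A candidate was found by this rule at 9 of the 10 genes and at 90.2% of all protein-coding genes, so 1373 genes had none. Its coding sequence was 70.6% identical to that of alphaTub84B. Nothing in the lists gives the sensitivity at this site, since they hold no read counts and the depth is unknown.

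Of the 4 beta-tubulin genes, 2 had peaks. betaTub97EF (FBgn0003890, chr3R:27967008-27988384, minus strand), expressed in the gut and a few other tissues, had 3, all at its 5' end. Peak 1 (chr3R:27988868-27989191), 646 bp before the TSS, had a signal of 73.83 in replicate 1 and 59.34 in replicate 2, with a mean of 66.58 ± 10.2 (SD, n = 2). It was in the sets of both replicates, and its series signal of 122.8, rank 2393, was just above the median of the set. In the single replicates' sets the strongest peak at the gene was below the median, 53.2% of the way down in replicate 1 and 63.7% in replicate 2. Peak 2 (chr3R:27988306-27988629), 84 bp before the TSS, had 59.47 and 36.1 in the same order and was in neither replicate's set. Peak 3 (chr3R:27987422-27987745), in an intron 800 bp after the TSS, had 55.4 in replicate 1 and 30.9 in replicate 2 and was in the set of replicate 1 alone. Replicate 1 was the higher at all 3, and the nearest TSS of another gene was 1721 bp or more away. This was the only restricted tubulin gene with a peak. Of the tubulin genes, only betaTub97EF and gammaTub23C had a peak in the thresholded sets of both replicates. All 12 peaks, those at alphaTub84B and betaTub56D included, had a candidate in each replicate's ranked list.

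betaTub56D (FBgn0284243, chr2R:19447319-19451600, minus strand), the main beta-tubulin gene of most cells, had 2 weak peaks. The stronger (chr2R:19452284-19452607) had a signal of 56.97 in replicate 1 and 36.49 in replicate 2, with a mean of 46.73 ± 14.5 (SD, n = 2), and was in the set of replicate 1 alone. It lay 846 bp before the nearest betaTub56D TSS but 58 bp before that of CG7744 (FBgn0034447). The peak at the betaTub56D start itself (chr2R:19451409-19451732), 29 bp after a TSS in the 5' UTR, had 35.54 in replicate 1 and 40.62 in replicate 2. Its series signal of 69.6 was the lowest of the 12 and ranked 4560, it was in neither replicate's set, and it was the single one of the 12 that was not in the other series set.

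betaTub60D (FBgn0288686, chr2R:24305881-24313099, plus strand), used in mesoderm and sense organs, and betaTub85D (FBgn0003889, chr3R:9408383-9410282, minus strand), the beta-tubulin gene of the testis, had no peak. The strongest candidate at betaTub60D lay in its 3' UTR, with 26.34 in the first replicate column and 26.93 in the second and a mean of 26.63 ± 0.412 (SD, n = 2). The strongest at betaTub85D lay in an intron 679 bp after the TSS, with 25.38 in the first column and 28.74 in the second and a mean of 27.06 ± 2.37 (SD, n = 2). At both genes the 2 columns were close to each other and below every replicate value of the 12 peaks.

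**Figure D2:**
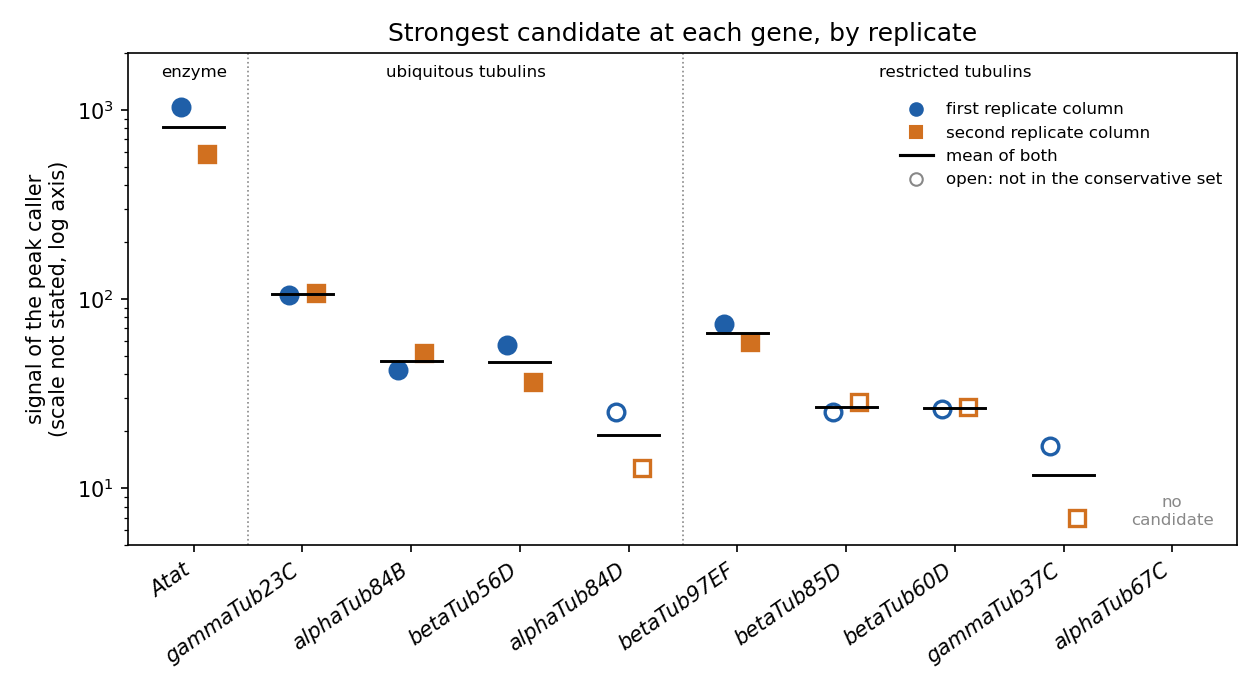
Signal in the first and second replicate columns (circles and squares, log axis, scale of the peak caller not stated) of the strongest peak, or where there was none the strongest candidate (open symbols), at each of the 10 genes, with the mean of both as a line. Atat stands at 1037 and 587.8, gammaTub23C just above 100, and the genes without a peak at or below 28.74, with no candidate at alphaTub67C. The Atat peak is shared with the Shc promoter and the gammaTub23C peak with that of Rrp1. The betaTub56D peak lies nearer to the TSS of CG7744.

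Of the 4 tubulin genes used in most cells, 3 had a peak (gammaTub23C, alphaTub84B and betaTub56D). Of the 5 restricted to the germ line or particular tissues 1 did (betaTub97EF), beside 35.6% of all protein-coding genes. With each replicate alone the counts were 2 of 4 and 1 of 5, beside 30.6% of all genes. When a peak had to overlap the thresholded sets of both replicates they were 1 of 4 and 1 of 5, beside 24.9% of all genes. The lead of the widely used genes was thus not found under this rule. The genes were chosen with their peaks known and are not replicates of a condition, so the contrast was not tested. For the tubulin genes with a candidate within 500 bp of a TSS, the order by the series signal of the strongest was gammaTub23C (217.3), alphaTub84B (98.99), betaTub97EF (91), betaTub56D (69.6), betaTub60D (32), betaTub85D (30.8) and alphaTub84D (27.01). The replicate values of these candidates were 42.4 and 52.01 at alphaTub84B, within the 59.47 and 36.1 at betaTub97EF, which also overlapped the 35.54 and 40.62 at betaTub56D. Both values at alphaTub84B were above both at betaTub56D. The values at betaTub60D (20.3 and 13.87), betaTub85D (14.39 and 13.77) and alphaTub84D (11.42 and 22.34) overlapped throughout, so their order is not set by the replicates.

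Among all protein-coding genes, 6.02% had a stronger promoter candidate than gammaTub23C, 14.4% than alphaTub84B, 15.5% than betaTub97EF and 20.4% than betaTub56D. For betaTub60D, betaTub85D and alphaTub84D the shares were 50.6%, 52.2% and 58%, near the middle of all genes. gammaTub37C and alphaTub67C had no candidate within 500 bp of a TSS, as did 22.3% of all genes.

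Across the 12 peaks, 7 lay within 500 bp of a TSS of the gene itself. For a TSS of any protein-coding gene the count was 9, beside 41.9% of the whole set. The 12 were admitted by lying in or within 2000 bp of genes chosen with their peaks known. The whole set was not limited in this way, so nothing is read from this contrast. By place, 5 were upstream of the gene, 3 in a 5' UTR, 4 in an intron and 0 in a coding exon. Of the 12, 4 had another gene's TSS within 500 bp, and these include the 3 strongest, at Atat and gammaTub23C. Only 4 of the 12 signals were above the median of the set. In the replicates' own sets, 6 peaks were in both, 2 in replicate 1 alone, 2 in replicate 2 alone and 2 in neither, while of the whole set 55.4% were in both and 21% in neither.

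**Figure D3:**
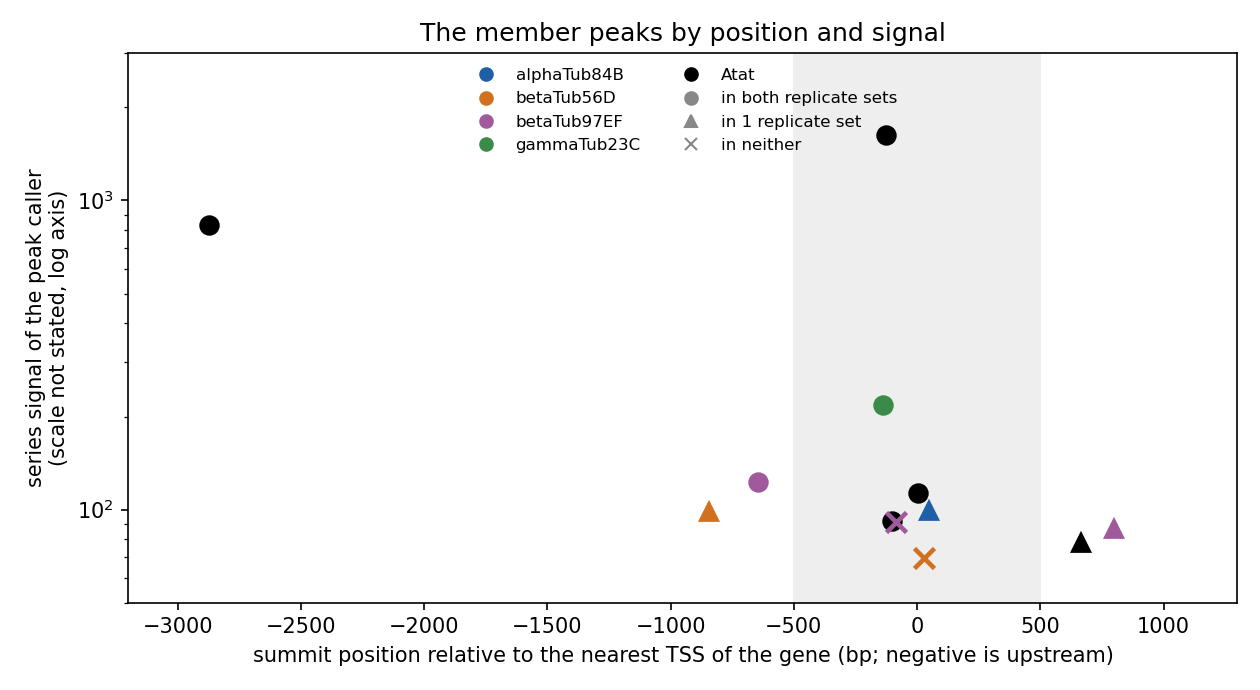
Series signal of the 12 peaks (log axis, scale of the peak caller not stated) against the distance in bp of the summit from the nearest TSS of the gene, negative upstream, coloured by gene, with circles for peaks in the sets of both replicates, triangles for 1 and crosses for neither. Of the 12 peaks, 7 fall in the shaded 500 bp on either side of the TSS, and the strong Atat peak at -2874 bp is the one in front of aay.

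Replicate 1 was the higher at 8 of the 12 peaks. In the whole set the first replicate column was 1.08 times the second in the median, with quartiles of 0.888 and 1.3, so the ratio of 1.76 at Atat peak 1 and of 1.79 at betaTub97EF peak 3 lay above the upper quartile. The SD of the 2 values was 16.5% of their mean in the median over the 12 peaks and 14.4% over the set.

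The set is thresholded on the irreproducible discovery rate (IDR), a measure of how well the ranks of a peak match between replicates, at 0.01 or a -log10 value of 2. Just inside was betaTub97EF peak 3, with a -log10 IDR of 2.14. Just outside was a candidate downstream of alphaTub84B (chr3R:7090397-7090720) with 1.77, a series signal of 60.95 and 31.52 and 29.01 in the replicate columns, which is in the other series set. Atat peaks 1 and 2 were at 5, the highest value that the lists hold, and gammaTub23C was at 4.72.

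In sequence, the 12 summits had little in common. Within 100 bp, TATCGATA was found at 1 of them, Atat peak 1, and in 2.97% of the set, and CGATA at 2 and in 27.2%. The E-box CACGTG was found at 1, Atat peak 4, and in 1.9% of the set. TATAAA was found at 6 (set 33.5%), TCAGT at 4 (36.2%) and AAAAAAA at 3 (24.4%). GGTCACACT, GAGAGAG and CAGGTAG were at 0 of the 12, and in 1.47%, 3.26% and 0.899% of the set. These matches are descriptions of letters and show neither binding nor its absence.

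The DRE of the Atat to Shc stretch begins 209 bp before the first base of Atat. In the 200 bp before annotated TSSs, TATCGATA was found at 2 of the 10 genes, gammaTub37C and alphaTub67C, and at 6.14% of 19253 promoters. There it begins 30 bp before the gammaTub37C start and 106 bp before the alphaTub67C start. Within 100 bp of the summit, GC content was 27.4% at both gammaTub23C and Atat peak 2, below the lower quartile of the set of 31.8%, and 45.3% at alphaTub84B, above its upper quartile of 41.8%.

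Other genes of the microtubule system were followed in 11 lists that held 112 genes. A peak was found at 54 of them (48.2%) by the same rule and at 33 (29.5%) within 500 bp of a TSS, beside 35.6% and 18.9% of all protein-coding genes. The median length of the listed genes was 3799 bp and that of all protein-coding genes 2166 bp, and the part of length in these counts was not tested. The contrast with all genes narrowed under some other rules but not under all. With the summit in the gene body itself the shares were 14.3% of the listed and 13.2% of all genes, and with replicate 2 alone 34.8% and 30.6%. With replicate 1 alone they were 43.8% and 30.6%, which was no narrower. A peak that overlapped the thresholded sets of both replicates was present at 36 of the 112 (32.1%), beside 24.9% of all genes. At 37 of the 54 the strongest peak lay within 500 bp of the TSS of another gene.

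Of 7 genes of the gamma-tubulin ring complex, 4 had a peak and 3 had none. The 4 were led by Grip71, which brings the ring to the spindle, with a replicate mean of 315.6 ± 99.7 (SD, n = 2), and by the core subunit gene Grip91 with 268.6 ± 61.5 (SD, n = 2). The Grip71 summit lay 119 bp before its TSS, near that of Faf2, and the Grip91 summit lay 5147 bp into the gene, near the TSS of CG11151. Grip84, another core subunit, had 71.71 ± 36.3 (SD, n = 2), and Grip163, named to complete the 4, had 43.87 ± 1.56 (SD, n = 2). Of the augmin complex, which recruits the ring to existing microtubules, 3 of 8 had a peak, dgt3 with a series signal of 138.9, wac with 131 and dgt2 with 92.19. At Grip84, Grip163 and these 3 augmin genes the summit also lay within 500 bp of another gene's TSS. The shares with a peak were 57.1% of the ring complex and 37.5% of the augmin genes, beside 35.6% of all protein-coding genes.

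Of the folding machinery, 5 of 14 prefoldin and CCT chaperonin genes had a peak, led by mgr, a prefoldin subunit, with 207.1 ± 48.7 (SD, n = 2), then Pfdn6 with a series signal of 183.8 and CCT5 with 154.4. Of the 4 tubulin folding cofactors, Tbcd had one, with 239.2 ± 26.8 (SD, n = 2), 60 bp before its TSS. Of the 3 other acetylation genes, Sirt2, a deacetylase, had a weak peak with 45.47 in the first replicate column and 39.37 in the second, and HDAC6, the main tubulin deacetylase, and lky had none. The Sirt2 values were near those of the weak Atat peaks 4 and 5, and far below those of Atat peaks 1 and 2, which also lie before Shc and aay. Of 12 glutamylation and glycylation genes 3 had a peak, TTLL12 with a series signal of 165.5, TTLL5 with 142.7 and TTLL4A with 91.18, and of 10 severing and depolymerisation genes 3 did, spas (spastin) with 174.2, kat-60L1 with 155.3 and Kat60 (katanin) with 136.5. The shares of these lists were 35.7%, 25%, 33.3%, 25% and 30% in the order given, near or below the 35.6% of all protein-coding genes. At every listed gene named here with a peak, the strongest summit lay within 500 bp of another gene's TSS.

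By the rule with 2000 bp, the shares were highest at genes of motors, centrioles and microtubule-binding proteins. They were 68.2%, 66.7% and 61.1%, beside 35.6% of all protein-coding genes. The median gene lengths of these lists were 5141, 3777 and 11035 bp, against 1667 bp for augmin genes and 2235 bp for prefoldin and CCT genes. Severing and depolymerisation genes, with 4844 bp, had a share of 30%, and the part of length in this order was not tested. With a peak in the thresholded sets of both replicates the order was another, beside 24.9% of all genes. It was 4 of 7 ring complex genes (57.1%), 8 of 18 microtubule-binding genes (44.4%), 5 of 12 centriole and centrosome genes (41.7%) and 8 of 22 motor genes (36.4%). Of 22 kinesin and dynein genes 15 had a peak by the rule with 2000 bp, led by Dhc64C, the heavy chain of cytoplasmic dynein, with 331.2 ± 43.2 (SD, n = 2), Klp64D, a kinesin-2 motor, with 155.7 ± 13.5 (SD, n = 2), and ncd, a minus-end directed kinesin, with a series signal of 216.2. The strongest peak at cmet is also that at cana, so it enters this count at both genes. Of 12 centriole and centrosome genes 8 had one. At 7 of the 12, Sas-6 not among them, a peak lay within 500 bp of a TSS of the gene, beside 18.9% of all protein-coding genes. The 8 were led by the centrosome scaffold gene cnn with a series signal of 222.1. Then came SAK with 190.5 and Sas-6 with 140.1, both needed for centriole duplication. Of 18 genes of plus-end, minus-end and lattice binding proteins 11 had one, led by Map60 with a series signal of 466, chb (CLASP) with 424.7 and CLIP-190 with 289.3. At Klp64D, ncd, SAK, Sas-6, Map60 and CLIP-190 the summit lay within 500 bp of another gene's TSS, and at Dhc64C, cnn and chb it did not. The Map60 summit was 1958 bp before its TSS, near that of CG1827. The CLIP-190 summit was 21210 bp after its nearest TSS, near that of CG15141. The 2 other tubulin genes, alphaTub85E and betaTub65B, had none.

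**Figure D4:**
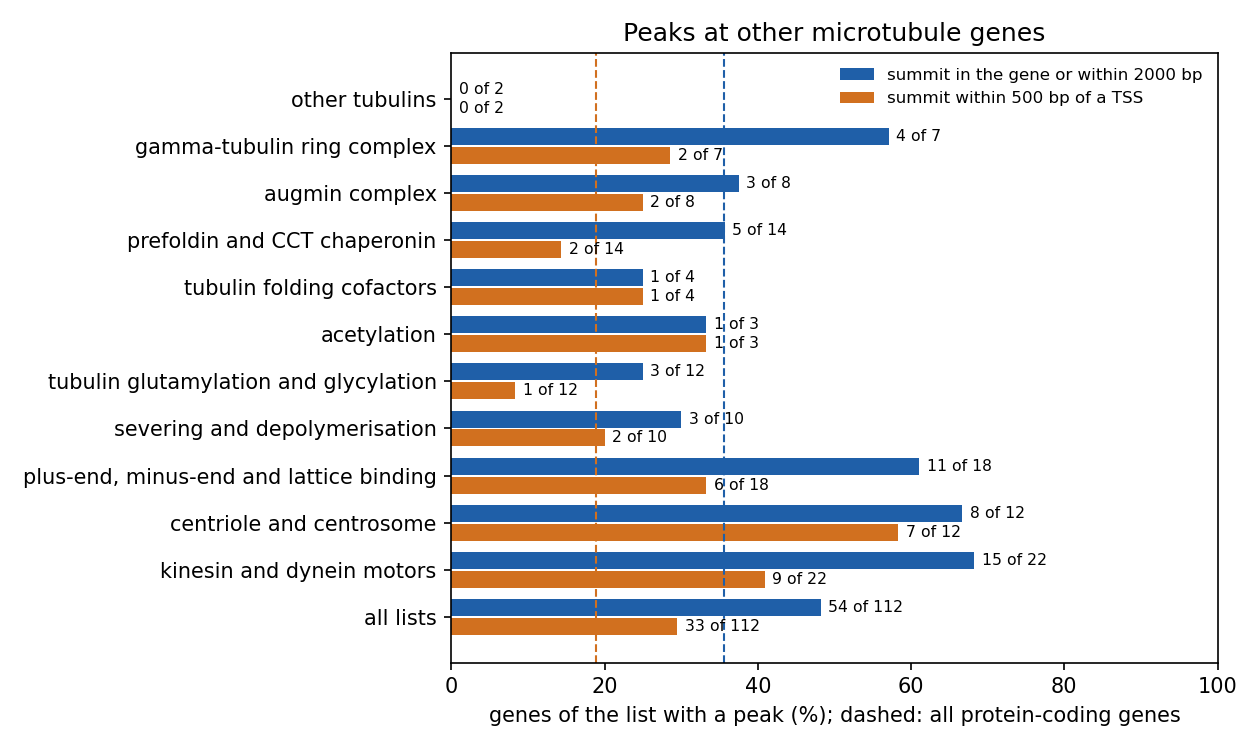
Share of the genes of each microtubule list with a peak in the gene or within 2000 bp (blue) and with one within 500 bp of a TSS (orange), in percent, with counts beside the bars and the shares over all protein-coding genes as dashed lines. Motor, centriole and microtubule-binding genes reach 68.2%, 66.7% and 61.1%, and the 2 other tubulin genes have none.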

How the data were processed

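Peak lists of 1 ChIP-seq group with 2 biological replicates were analysed; per the labels, chromatin was sonicated to 200 to 800 bp. The 8 deposited lists hold ranked candidates and sets thresholded by IDR, per replicate and for the series in 2 versions, made on dm6 from the replicates' and a control alignment, per the text deposited with each sample. Which aligner and peak caller were used is not given in the sources used here. The signal in these lists is a peak height that the authors' caller wrote, of unstated scale, and was compared within a list only. The authors' summit column (unit other) counts bp from where the peak begins, and their deposited IDR values are on a -log10 scale. Read counts are not in the lists, so the depth is unknown and no counting interval is given.

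The conservative set was the main one. Genes and TSSs came from Ensembl release 115 (annotation 6.54), on 6 arms, and sequence from the RefSeq dm6 genome. Coordinates are 1-based. A peak counted as present in a replicate when it overlapped a peak of its thresholded set by at least 1 bp. Replicate values of peaks come from each replicate's ranked list and equal the 2 replicate columns of the series list at 12 of 12 peaks. Values of candidates outside the set come from those columns, whose headings give no number. The assignment was tested on simulated data. Python 3.11.15, numpy 2.4.6, pandas 2.3.3, Biopython 1.88, pysam 0.24.0 and matplotlib 3.10.9 were used.

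The 10 genes and the lists were chosen with earlier results of these data known. All 10 are named, with the genes whose TSS lies within 500 bp of a summit and up to 3 genes a list with the strongest signal. Of the list symbols, 3 were not matched and are not analysed here. Alternatives were the other series set, each replicate alone, other flanks, a stricter IDR, other overlap rules and other motif windows.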

Additional observations from a re-analysis of the deposited data

How the results depend on the processing

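The 5 genes with a peak were the same in the other series set, with 1000 bp in place of 2000 bp around the gene, and with a summit within 500 bp of a TSS. The shares of all genes were 38.8%, 29.5% and 18.9% in that order. With no flank (0 bp), 4 of the 10 genes had a peak, beside 13.2% of all genes, gammaTub23C being lost, and the peaks fell from 12 to 7. Within 500 bp of a TSS there were also 7. At an IDR of 0.001, which leaves 3037 peaks, 3 of the 10 genes (Atat, gammaTub23C and betaTub97EF), 1 of the 4 widely used tubulin genes and 5 peaks remained, beside 26.4% of all genes. Leaving out 1 replicate gave 4 to 4 genes, 2 to 2 widely used and 1 to 1 restricted tubulin genes, and 8 to 9 peaks. Of all genes, 30.6% had a peak with either replicate left out. Without replicate 1 betaTub56D was lost, and without replicate 2 alphaTub84B. Of the listed microtubule genes, 16 (14.3%, all genes 13.2%) had a peak with no flank, 33 (29.5%, all genes 18.9%) within 500 bp of a TSS, 37 (33%, all genes 26.4%) at the stricter IDR, and 39 (34.8%) without replicate 1 and 49 (43.8%) without replicate 2, each beside 30.6% of all genes, against 54 (48.2%, all genes 35.6%). In the other series set 52 of the listed genes (46.4%, all genes 38.8%) had a peak, and with 1000 bp around the gene 44 (39.3%, all genes 29.5%). These alternatives for the lists were added after seeing the data. Of the strongest peaks, that of Atat stood between 0.317% and 1.02% of the way down the sets of single replicates, that of alphaTub84B at 75.1% in replicate 2 and that of betaTub56D at 73.4% in replicate 1, against 0.43%, 60.7% and 61.4%. The sets differ in length. Within 50 bp of the summit, TATCGATA was at 0, TATAAA at 3 and TCAGT at 2 of the 12, and within 150 bp CGATA was at 6 and TCAGT at 7, as a wider window holds more letters. Of 37 alternative counts of genes and peaks, 30 were within 1.5 times the count given. No paired analysis was possible because there was 1 group. The depth is unknown, so sites without a candidate cannot be told from sites below detection.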
